A study of Mus musculus with 9 samples.

Results

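Genes that set periosteal cells apart from marrow stromal cells in the same direction before and after bone transplantation were collected from 9 RNA sequencing libraries of mouse femur. A gene was taken when its lowest value in the 6 periosteal libraries lay above its highest value in the 3 marrow libraries, or the reverse, and when the means of the steady-state and the graft periosteal groups lay within 1 of each other. Values were log2(FPKM + 1), in which FPKM is fragments scaled to gene length in kilobases and to the size of the library, and a gene had to reach an FPKM of 1 in at least 3 libraries. Of 1948 genes that passed this filter, 288 met the rule, 101 of them higher and 187 lower in periosteum.

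The 3 groups held 3 libraries each. BM-MSCs (bone marrow mesenchymal stem cells) and P-SSCs (periosteal skeletal stem cells) came from steady-state bone, labelled Day 0, and graft P-SSCs came from the periosteum of femurs taken 3 days after they had been placed under the skin of a recipient. All were from wild-type (WT) C57BL/6J mice, and no gene was altered in any group. The cells were sorted as CD45-Ter119-CD31-CD51+CD200+, which leaves out blood and endothelial cells and keeps stromal cells that carry integrin alpha V and CD200. Each library held RNA of distinct mice and some pooled more than 1 mouse. These 9 libraries hold no marrow from grafts, so the comparison sets graft periosteum against steady-state marrow.

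The periosteum is the fibrous and vascular sheath on the outer face of bone. Its skeletal stem cells form cartilage and bone after a fracture and lie in a collagen-rich matrix that holds periostin. The stroma of the marrow is a looser network around sinusoids, and its mesenchymal stem cells are known for cytokines that keep hematopoietic stem cells in place, for transferrin and for lipid handling. Both populations are multipotent. The genes collected here told them apart in these libraries and had P-SSC group means within the limit of the rule. Some of these genes still differed between the P-SSC groups by nearly that limit.

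Library totals recovered from the steps of the FPKM values ranged from 16890241 to 21315438 fragments. Pearson correlations of log2(FPKM + 1) over the 1948 genes were 0.945 to 0.956 within BM-MSCs, 0.858 to 0.96 within P-SSCs and 0.982 to 0.992 within graft P-SSCs. P-SSC replicate 3 stood apart from the other 2 steady-state periosteal libraries. It lay more than 1 from both of them, on the same side, in 21.3% of the genes tested, against 3.03% for replicate 1 and 7.65% for replicate 2. Among the genes that met the rule this held for 20 of the 101 higher and 8 of the 187 lower ones.

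In all, 405 genes separated the periosteal from the marrow libraries with no overlap. They were higher in periosteum in 175 genes (8.98% of the genes tested) and lower in 230 (11.8%). The second condition, P-SSC means within 1, held for 101 of the 175 higher genes (5.18% of those tested) and for 187 of the 230 lower genes (9.60%), which is 57.7% and 81.3% of the separated genes. Over all genes tested, 64.4% had P-SSC means within 1. Since the rule used these values, the counts describe the selection and were given no test. Without P-SSC replicate 3 the same rule gave 119 higher and 216 lower genes, and 268 of the 288 genes met it again. The count of higher genes was 158 without BM-MSC replicate 1 and 152 without P-SSC replicate 2.

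The floor of the scale bears on the lower genes. For 60 of the 187 both P-SSC groups had a mean under 1 FPKM, so their means could not lie more than 1 apart, and 5 were listed at 0 in all 6 periosteal libraries (*Tspan8*, *Kel*, *Ccdc113*, *Gm48050* and *Gm44861*). Of the 170 lower genes with at least 1 FPKM in a P-SSC group, 127 met the rule, or 74.7%. Among the higher genes, 69 of 101 had at least 1 FPKM in BM-MSCs.

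As a background across the 1948 genes tested, limma at a Benjamini-Hochberg adjusted p under 0.05 called 306 genes higher (15.7%) and 302 lower (15.5%) in the 6 periosteal libraries than in BM-MSCs. It called 195 higher without BM-MSC replicate 2, and 103 higher and 167 lower with the periosteal libraries as 1 group. Of the genes that met the rule, 85 of the 101 higher and 175 of the 187 lower ones were among them. Nothing is read from this share, since the rule selected on the same contrast. The median difference from marrow was 1.29 on the log2 scale in the higher genes (0.414 to 5.19) and -1.42 in the lower genes (-0.24 to -7.13), with a median of 0.121 over all genes tested. A difference of at least 3 was found in 8 higher and 32 lower genes.

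**Figure D1:**
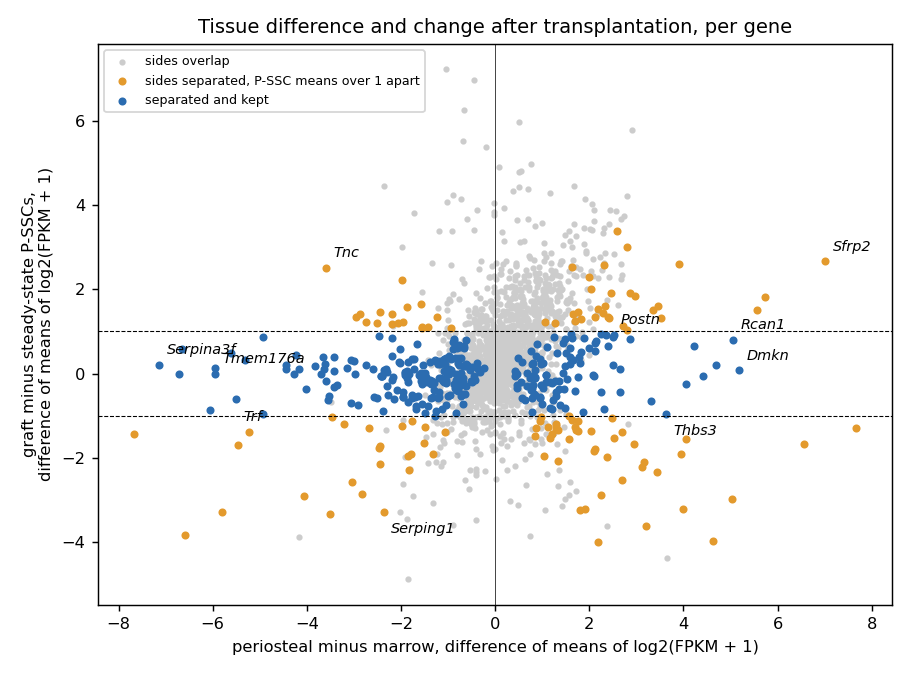
Each of the 1948 genes tested is a point, with the periosteal minus marrow difference on the x axis and the graft minus steady-state difference on the y axis, both between means of log2(FPKM + 1). The 288 genes of the rule (blue) lie between the dashed lines at 1 and -1, and the 117 separated genes outside the lines (orange) include *Sfrp2*, *Tnc* and *Serping1*.

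The largest differences above marrow were in *Dmkn*, *Rcan1*, *Il6*, *Lgi3*, *Flnc*, *F3*, *Thbs3* and *Nox4*, between 3.30 and 5.19 on the log2 scale. The largest below marrow were in *Serpina3f*, *Slc26a7*, *Il1rn* and *Slc40a1*, followed by *Gpr50*, *Tmem176a*, *Eva1a* and *Trf*. The sequences below lie directly before the start of *Postn* and of 4 of these genes, so that 3 are higher and 2 lower in periosteum, and they were chosen after the motif search from the named genes whose windows held marked letters.

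The promoters were taken from RefSeq on GRCm38.p6, which held an entry by symbol for 211 of the 288 genes (73.3%). That is too few to compare the whole set with other genes, so no share over the set is given. Each sequence is the 250 bases before the annotated start, read 5′ to 3′ on the strand of the gene. Of 31 windows of named genes, 11 held letters marked here and 20 held none, those of *Rcan1*, *Flnc*, *Thbs3* and *Tmem176a* among the latter. Capitals mark AP-1 (TGANTCA), C/EBP (TTGCNNAA) and RUNX (TGTGGT) letters, searched on both strands, and in these 5 windows the marked motifs did not overlap. Over the 27025 promoters of the table, 6.89% held the AP-1 letters, 9.53% the C/EBP letters and 14.2% the RUNX letters in the same window. Letters searched but not marked were those of HIF, spelled ACGTG and held by 16.3% of promoters, of TEAD, spelled GGAATG and held by 12.6%, and of the GC box, spelled GGGCGG and held by 32.7%. The TATA box, spelled TATAAA, was held by 12.9% of promoters, the E-box, spelled CANNTG, by 66.2%, the homeobox core, spelled TAATTA, by 4.96%, the CCAAT box by 34.2% and the EBF motif by 0.766%.
Il6, chr5:30012864-30013113, plus strand: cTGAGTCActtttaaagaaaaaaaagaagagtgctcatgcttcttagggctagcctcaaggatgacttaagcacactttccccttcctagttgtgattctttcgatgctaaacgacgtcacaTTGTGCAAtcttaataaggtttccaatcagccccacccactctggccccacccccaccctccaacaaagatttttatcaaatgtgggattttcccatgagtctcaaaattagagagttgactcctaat
F3, chr3:121723287-121723536, plus strand: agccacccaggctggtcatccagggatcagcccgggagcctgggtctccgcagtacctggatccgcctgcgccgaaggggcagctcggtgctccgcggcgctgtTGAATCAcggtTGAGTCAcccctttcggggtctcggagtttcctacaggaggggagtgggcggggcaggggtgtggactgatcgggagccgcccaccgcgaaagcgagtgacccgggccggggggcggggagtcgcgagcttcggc
Postn, chr3:54360857-54361106, plus strand: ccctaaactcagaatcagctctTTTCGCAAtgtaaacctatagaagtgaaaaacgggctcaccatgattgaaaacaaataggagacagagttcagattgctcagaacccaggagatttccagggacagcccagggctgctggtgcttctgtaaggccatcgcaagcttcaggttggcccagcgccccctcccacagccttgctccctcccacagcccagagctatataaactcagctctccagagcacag
Il1rn, chr2:24336610-24336859, plus strand: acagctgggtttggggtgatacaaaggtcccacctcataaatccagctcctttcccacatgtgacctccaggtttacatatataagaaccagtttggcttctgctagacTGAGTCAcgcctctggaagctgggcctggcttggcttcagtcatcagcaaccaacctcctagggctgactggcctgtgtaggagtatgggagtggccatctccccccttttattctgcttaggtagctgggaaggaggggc
Serpina3f, chr12:104214294-104214543, plus strand: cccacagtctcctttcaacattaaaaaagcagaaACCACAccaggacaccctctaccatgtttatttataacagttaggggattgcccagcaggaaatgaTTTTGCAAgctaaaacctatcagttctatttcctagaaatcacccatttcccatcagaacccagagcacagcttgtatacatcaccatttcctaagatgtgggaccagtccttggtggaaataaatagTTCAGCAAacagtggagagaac

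Counted back from the start, the AP-1 letters in *Il6* began 249 bases before it and the C/EBP letters 128 bases before it. *F3* held AP-1 letters at 146 and at 135 bases, and *Postn* C/EBP letters at 228 bases. *Il1rn* held AP-1 letters at 141 bases. *Serpina3f* held RUNX letters at 216 bases and C/EBP letters at 150 and 22 bases. The 5 windows also differed in base composition, with 24 CpG dinucleotides in *F3*, 4 in *Postn*, 3 in *Il6*, 1 in *Il1rn* and 0 in *Serpina3f*, against a median of 6 over all promoters. A match of letters is a description of the window and not a binding site.

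Matrix genes. *Postn* (chr3:54361109-54391037, plus strand, GRCm38) encodes periostin, a secreted protein of collagen-rich matrix that marks periosteum. Its FPKM was 125, 100.5 and 90.6 in BM-MSCs, 451, 476 and 391 in P-SSCs and 782, 829 and 879 in graft P-SSCs. All 6 periosteal libraries lay above marrow, and all 3 graft libraries lay above the steady-state ones. The periosteal minus marrow difference was 2.52 on the log2 scale (SE 0.13), and graft exceeded steady state by 0.92 (95% interval 0.57 to 1.27), so *Postn* was close to the limit of the rule. *Col6a3*, a chain of the collagen VI microfibrils, had 21.5, 20 and 17.2 FPKM in BM-MSCs, 143, 114 and 83.2 in P-SSCs and 193, 163 and 239 in graft P-SSCs. It too was higher in each graft library than in any steady-state one.

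*Thbs3* encodes thrombospondin 3, a pentameric matrix glycoprotein of skeletal tissue. Its FPKM was 32.0, 17.0 and 14.0 in BM-MSCs, 337, 416 and 324 in P-SSCs and 184, 185 and 184 in graft P-SSCs. The graft libraries lay below the steady-state ones, by a mean difference of -0.95 on the log2 scale (95% interval -1.54 to -0.36), and still lay well above marrow. *Adamts5*, a protease that cuts aggrecan, had the same order of groups, with 1.36 to 2.82 FPKM in BM-MSCs, 8.73 to 19.6 in P-SSCs and 5.97 to 7.58 in graft P-SSCs. Among 13 matrix proteases and inhibitors tested, it alone met the rule as higher (5.18% of all genes tested). The inhibitors *Serpina3f* and *Serpina3m* met it as lower (9.60% of all). The 4 matrix genes split, with *Postn* and *Col6a3* higher and *Thbs3* and *Adamts5* lower in the graft libraries.

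The gene lists were larger than the table, which held 8 of 29 niche factors, 3 of 35 cartilage genes and 15 of 74 limb genes, so each count covers a part of its list. On the extracellular matrix list 16 of 137 genes were tested, of which *Col6a3*, *Postn* and *Thbs3* met the rule. Another 4 were separated but moved after transplantation (*Cilp*, *Cilp2*, *Tnxb* and *Tnc*), 3 of them higher and 1 lower in periosteum. The other 9 overlapped between the sides. limma called 7 of the 16 higher and 2 lower in periosteum, beside 15.7% and 15.5% of all genes tested, and the list's median difference was 0.971, beside 0.121 over all genes tested. Among 13 markers of periosteum and fibrous tissue, 2 met the rule, both higher (*Postn* and *Thbs3*, beside 5.18% of all genes tested). Another 6 were separated but moved, 5 of them higher and 1 lower in periosteum, and 5 overlapped. limma called 8 of the 13 higher and 1 lower, and the list's median difference was 1.81. Only these 2 of the 288 genes are on this list, so the 288 are named here by the rule alone. *Cilp*, a secreted cartilage layer protein, had 0.0257 to 0.0397 FPKM in BM-MSCs, 263 to 381 in P-SSCs and 122 to 157 in graft P-SSCs. *Tnxb*, the matrix protein tenascin X, went from 44.6 to 49.4 FPKM in P-SSCs to 3.70 to 4.84 in graft P-SSCs.

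Cell cortex and cytoskeleton. *Vim*, the intermediate filament of mesenchymal cells, had 457, 438 and 449 FPKM in BM-MSCs, 1667, 1823 and 1499 in P-SSCs and 3051, 3104 and 3240 in graft P-SSCs. *Anxa2*, a calcium-dependent protein that binds membrane to actin, had 791, 791 and 585 FPKM in BM-MSCs, 3346, 3565 and 2305 in P-SSCs and 5273, 5762 and 5404 in graft P-SSCs. For both genes the 3 groups were in the order marrow, steady-state periosteum, graft periosteum, without overlap between any of them.

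*Flnc*, the filamin that crosslinks actin in muscle and in stressed cells, was near 0 in marrow, with 0.0186, 1.02 and 0.696 FPKM. It had 20.7, 17.0 and 28.6 FPKM in P-SSCs and 34.7, 29.4 and 39.9 in graft P-SSCs. All 3 graft libraries lay above the steady-state ones. *Myo1e*, a class I myosin of the cell membrane, went the other way, with 23.0 to 35.1 FPKM in P-SSCs and 14.9 to 17.6 in graft P-SSCs, against 5.01 to 9.74 in BM-MSCs. In a list of filamins, vimentin and cortical actin linkers that was written after these values were seen, 6 of the 11 genes tested met the rule, all higher (5.18% of all genes tested), and 2 more were separated and higher but moved (*Cav1* and *S100a4*).

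Signalling and secreted factors. *Il6* encodes interleukin 6, a cytokine of inflammation and bone turnover. Its FPKM was 0.604, 0.792 and 2.02 in BM-MSCs, 92.8, 60.0 and 20.3 in P-SSCs and 55.3, 62.5 and 52.0 in graft P-SSCs. The lowest periosteal value, 20.3 FPKM, was that of P-SSC replicate 3, and the P-SSC groups overlapped. The periosteal minus marrow difference was 4.70 (SE 0.42) on the log2 scale. *Il6st*, which encodes gp130, the signalling chain shared by receptors of this cytokine family, just separated, with 28.8 to 72.8 FPKM in BM-MSCs, 74.4 to 156 in P-SSCs and 88.4 to 96.1 in graft P-SSCs. Its periosteal minus marrow difference was 1.01 (SE 0.32) on the log2 scale and 0.60 without BM-MSC replicate 2. *Il6* was the 1 gene of 7 tested on the list of niche factors for hematopoietic stem cells that met the rule, beside 5.18% of all genes tested on the higher side. *Cxcl1* and *Lif* of that list were separated and higher but moved, and *Il15* was separated and lower but moved.

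*Il1rn*, which encodes the antagonist of the interleukin 1 receptor, was the opposite case. It had 144, 106 and 368 FPKM in BM-MSCs, 0.0349, 1.94 and 0 in P-SSCs and 0.663, 2.04 and 1.04 in graft P-SSCs. Among 14 chemokines, cytokines and receptors tested, *Il6* and *Il6st* met the rule as higher (5.18% of all genes tested) and *Il1rn* as lower (9.60%). Another 7 were separated but moved, 5 of them higher and 2 lower in periosteum.

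*Rcan1*, an inhibitor of the phosphatase calcineurin, had 5.97, 0.0980 and 8.97 FPKM in BM-MSCs, 119, 84.1 and 119 in P-SSCs and 178, 193 and 188 in graft P-SSCs. Its P-SSC groups did not overlap and the graft was higher. *F3*, tissue factor, the cell surface starter of coagulation, had 4.23, 5.88 and 3.87 FPKM in BM-MSCs, 68.6, 67.1 and 213 in P-SSCs and 92.5, 79.9 and 79.4 in graft P-SSCs. The value of 213 FPKM was again that of P-SSC replicate 3, and the other 5 periosteal libraries lay between 67.1 and 92.5. *Dmkn*, the secreted epithelial protein dermokine, had the largest difference above marrow, 5.19 (SE 0.56) on the log2 scale. It had at most 0.110 FPKM in marrow, 26.3, 127 and 13.7 in P-SSCs and 46.3, 39.4 and 30.4 in graft P-SSCs.

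Large differences above marrow were also found in *Lgi3*, a secreted leucine-rich repeat protein, *Rab4a*, a small GTPase of endosome recycling, and *Pvr*, the adhesion molecule CD155. *Lgi3* had at most 0.434 FPKM in marrow, 19.1 to 37.4 in P-SSCs and 22.7 to 26.2 in graft P-SSCs. *Rab4a* had 0.962 to 1.68 FPKM in marrow, 12.3 to 20.1 in P-SSCs and 9.58 to 13.3 in graft P-SSCs. *Pvr* had 1.16 to 4.01 FPKM in marrow, 9.84 to 22.5 in P-SSCs and 14.9 to 22.7 in graft P-SSCs. In each of these 3 genes the steady-state and graft values overlapped.

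**Figure D2:**
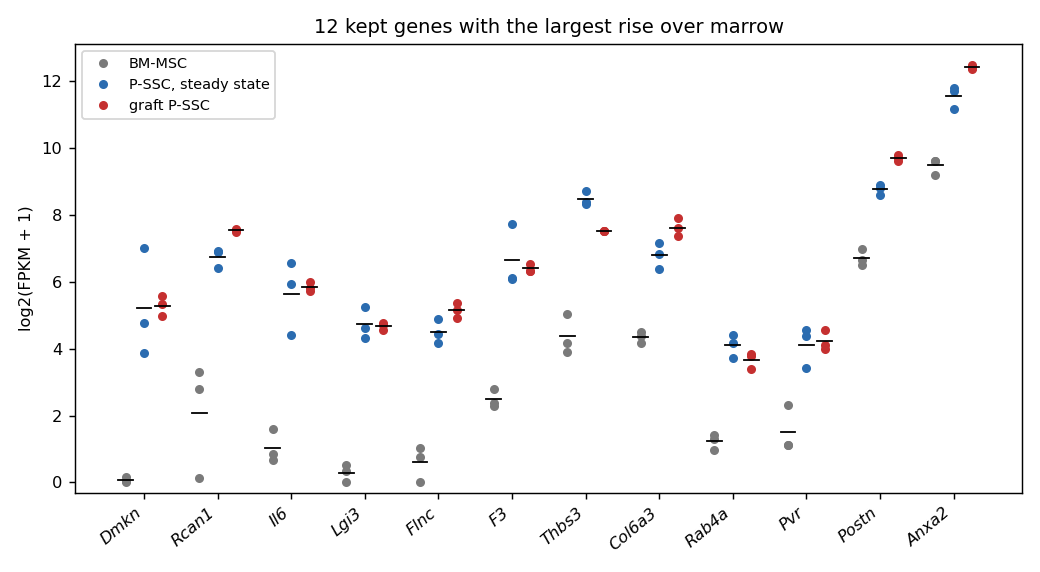
The 12 genes with the largest difference above marrow whose periosteal mean reached 10 FPKM, on log2(FPKM + 1). Points are libraries, 3 in each group, and bars are group means, and every periosteal point lies above every marrow point of its gene.

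Iron handling. *Trf* (chr9:103204001-103230444, minus strand) encodes transferrin, the iron carrier of plasma that marrow stromal cells also make. Its FPKM was 195, 161 and 135 in BM-MSCs, 3.86, 4.45 and 2.30 in P-SSCs and 2.52, 1.18 and 2.17 in graft P-SSCs. The group means were 163 ± 30 in BM-MSCs, 3.53 ± 1.1 in P-SSCs and 1.96 ± 0.70 in graft P-SSCs (SD, n = 3). Every marrow library lay far above every periosteal one, and the P-SSC groups overlapped. The difference from marrow was -5.50 (SE 0.26) on the log2 scale, and that between graft and steady state was -0.61 (95% interval -1.29 to 0.06).

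*Slc40a1* encodes ferroportin, the exporter of iron from cells. It had 413, 152 and 108 FPKM in BM-MSCs, 3.25, 2.09 and 3.35 in P-SSCs and 1.83, 0.839 and 0.811 in graft P-SSCs. *Heph* encodes hephaestin, a copper-bound enzyme that oxidizes iron at its exit from cells, and had 44.7, 12.9 and 30.5 FPKM in BM-MSCs, 2.72, 3.07 and 3.78 in P-SSCs and 1.22, 1.46 and 2.09 in graft P-SSCs. For *Slc40a1* and *Heph* all 3 graft libraries lay below the steady-state ones, further from marrow.

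These were 3 of the 11 genes of iron and copper handling tested, all lower, beside 9.60% of all genes tested. The other 8 overlapped between the sides, the light chain of ferritin (*Ftl1*), heme oxygenase (*Hmox1*) and *Ireb2* among them. Most genes overlapped, since 8.98% of all genes tested were separated as higher and 11.8% as lower. limma called 3 of the 11 lower and 1 higher, beside 15.5% and 15.7% of all genes tested, and the median difference of the list was 0.00415. *Trf*, *Slc40a1* and *Heph* carry iron in plasma or act in its export from cells. The rule chose these genes by their values, so nothing is read about the list from what they share.

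Protease inhibitors and acute-phase genes. *Serpina3f* showed the largest difference below marrow, -7.13 (SE 0.23) on the log2 scale. This serine protease inhibitor of the alpha-1-antichymotrypsin cluster had 141, 138 and 181 FPKM in BM-MSCs, 0, 0 and 0.0486 in P-SSCs and 0.340, 0.0650 and 0.129 in graft P-SSCs. Its neighbour *Serpina3m* had 12.2 to 22.2 FPKM in BM-MSCs and 0.0849 to 3.79 in the periosteal libraries. The genes of this cluster are near-identical copies that share reads, so their separate levels are uncertain. *Orm1*, the acute-phase protein orosomucoid 1, had 9.40 to 13 FPKM in BM-MSCs and was listed at 0 in 5 of the 6 periosteal libraries, with 0.980 in P-SSC replicate 1. Of 12 acute-phase and complement genes tested, 4 met the rule as lower (*Trf*, *Serpina3f*, *Orm1* and *F13a1*; 9.60% of all genes tested), 1 as higher (*F3*; 5.18% of all), and 3 were separated and lower but moved.

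Membrane proteins and enzymes. *Tmem176a*, a four-span membrane protein of antigen-presenting and stromal cells, was the most abundant in marrow of the lower genes named here that met the rule. It had 2739, 2698 and 2391 FPKM in BM-MSCs, 53.0, 35.7 and 36.8 in P-SSCs and 38.8, 40.3 and 44.5 in graft P-SSCs. The means of the P-SSC groups were 41.8 ± 9.7 and 41.2 ± 3.0 FPKM (SD, n = 3), and their difference had a 95% interval of -0.39 to 0.39 on the log2 scale. The table held 6 of the 44 marrow stromal markers, and 5 were tested. *Tmem176a* and *Trf* met the rule as lower (9.60% of all genes tested). limma called 4 of the 5 lower, beside 15.5% of all genes tested. *Lpl* and *Serping1* of this list were separated and lower but moved, and *Zfp423* overlapped.

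*Slc26a7*, an anion exchanger, had 150, 63.5 and 118 FPKM in BM-MSCs and was listed at 0 in all periosteal libraries but P-SSC replicate 3, at 0.0304. *Gpr50*, an orphan receptor related to the melatonin receptors, had 104, 19.3 and 126 FPKM in BM-MSCs, was listed at 0 in the P-SSCs and had 0.0337 to 0.160 in graft P-SSCs. *Mme*, the cell surface peptidase neprilysin, had 98.3, 52.2 and 55.2 FPKM in BM-MSCs, 4.14, 1.16 and 1.51 in P-SSCs and 0.823, 0.613 and 0.312 in graft P-SSCs. In *Mme* the graft libraries all lay below steady state, with a difference of -0.95 on the log2 scale, just inside the limit.

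Smaller in level were *Eva1a*, a membrane protein of autophagy, *Akr1c13*, an aldo-keto reductase, and *Colec11*, a lectin of the complement system. Their marrow values were 58.8 to 81.0, 42.1 to 89.8 and 8.11 to 42.9 FPKM. No periosteal library exceeded 1.35, 1.49 and 0.384 FPKM for these genes in the same order. *Dhrs3*, a reductase of retinaldehyde, kept a clear level in periosteum, with 173 to 230 FPKM in BM-MSCs, 34.9 to 97.1 in P-SSCs and 37.1 to 43.5 in graft P-SSCs. On its list of lipid handling and adipocyte genes, 8 of the 12 genes tested overlapped between the sides.

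**Figure D3:**
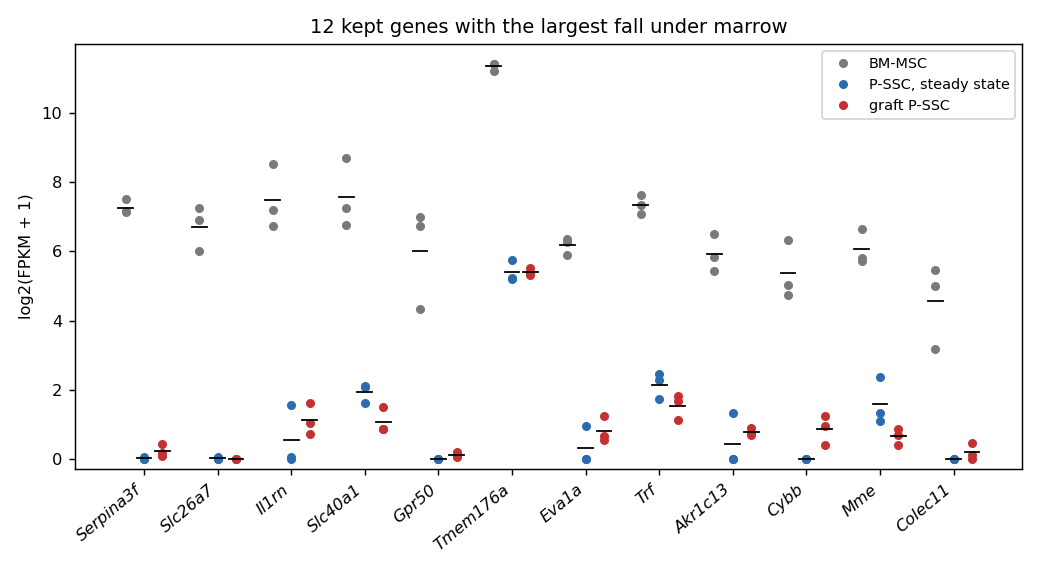
The 12 genes with the largest difference below marrow whose BM-MSC mean reached 10 FPKM, on log2(FPKM + 1). Points are libraries, 3 in each group, and bars are group means, and the periosteal points of each gene lie below its marrow points, highest in *Tmem176a* and at or near 0 in *Slc26a7* and *Gpr50*.

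Osteoblast and signalling genes. *Dlx6*, a homeobox gene of limb and jaw, had 2.14 to 3.85 FPKM in BM-MSCs, 0.237 to 0.887 in P-SSCs and 0.0521 to 0.176 in graft P-SSCs. Of the 4 osteoblast genes tested, 2 overlapped. Of 16 genes of BMP, TGF-beta and Wnt signalling, *Dand5*, *Fzd5* and *Id4* met the rule as lower (9.60% of all genes tested), all with under 9 FPKM in marrow, 4 were separated and higher but moved, and 9 overlapped. No gene of 14 transcription factors of mesenchyme, of 6 genes of limb position or of 2 cartilage genes met the rule.

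Blood genes in the marrow libraries. The summed FPKM of the 14 blood cell markers in the table was 1217 to 2945 in BM-MSCs, 45.5 to 96.2 in P-SSCs and 43.6 to 101 in graft P-SSCs, although CD45+ and Ter119+ cells were sorted out. *Ptprc*, which encodes CD45 and did not pass the filter, had 0.326 to 1.35 FPKM in BM-MSCs, 0 in the P-SSCs and 0.113 to 0.311 in graft P-SSCs. Of the 10 markers tested, 3 met the rule and were lower in periosteum (*Cybb*, *Cd79b* and *Lyz2*; 9.60% of all genes tested), 2 were separated and lower but moved (*Hba-a2* and *Spi1*), and 5 overlapped (*Adgre1*, *Csf1r*, *H2-Aa*, *Ighm* and *Mpo*). *Csf1r*, the receptor of macrophage colony-stimulating factor, was highest in the graft, with 0 to 2.68 FPKM in BM-MSCs, 0.248 to 0.835 in P-SSCs and 5.57 to 6.31 in graft P-SSCs. *Adgre1*, a macrophage marker, reached 3.17 FPKM in BM-MSCs and 2.75 in graft P-SSCs and was listed at 0 in the P-SSCs. *Ighm*, of B cells, had 9.21 to 31.1 FPKM in BM-MSCs, 5.71 to 24.6 in P-SSCs and 0.235 to 0.567 in graft P-SSCs. *Cybb*, the catalytic chain of the phagocyte oxidase, had 31.7, 25.8 and 79.9 FPKM in BM-MSCs, was listed at 0 in all P-SSCs and had 0.952, 0.316 and 1.35 in graft P-SSCs. *Lyz2*, lysozyme of myeloid cells, kept 14.2 to 84.0 FPKM in periosteum against 143 to 608 in marrow.

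Other genes known from blood cells, chosen after their values were seen, were also among the lower ones. *Nfe2*, a transcription factor of red cell precursors and megakaryocytes, had 10.3, 16.2 and 31.8 FPKM in BM-MSCs and at most 0.240 in periosteum. *Fcnb*, a ficolin of neutrophil precursors, had 8.55 to 52.2 FPKM in BM-MSCs, and *Kel*, a red cell blood group gene, had 4.26 to 33.5. The summed blood markers were higher on the marrow side, their part in the lower values of periosteum was not tested, and fewer cells of a type and less RNA per cell cannot be told apart in bulk samples. The highest sum of blood markers was in BM-MSC replicate 3, most of it from *Hba-a2* with 2201 FPKM and *Lyz2* with 608. *Mpo*, a granule enzyme of neutrophil precursors, had 292 FPKM in BM-MSC replicate 1 and was listed at 0 in the other marrow libraries.

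The markers of endothelium summed to at most 2.56 FPKM in any library, from 2 genes in the table. The markers of muscle summed to 0.0553 to 6.62 FPKM in BM-MSCs, 4.37 to 17.8 in P-SSCs and 1.19 to 2.09 in graft P-SSCs. Those of nerve and Schwann cells summed to 385 to 535 FPKM in BM-MSCs, 854 to 1149 in P-SSCs and 234 to 239 in graft P-SSCs, most of it from *Pmp22*. No gene of either list met the rule, among 2 and 3 tested, and their part in the differences was not tested. The periosteum was cut with scissors and digested with collagenase and dispase before sorting, for longer than the marrow. The summed FPKM of 8 immediate early genes, a list written after the values were seen, was 490 to 643 in BM-MSCs, 1147 to 1284 in P-SSCs and 1058 to 1146 in graft P-SSCs, and tissue and preparation cannot be told apart in this design. Among the 6 of these genes tested, *Fosl2*, a subunit of AP-1, met the rule as higher (5.18% of all genes tested), with 0.982 to 2.08 FPKM in BM-MSCs, 5.44 to 8.76 in P-SSCs and 8.27 to 9.84 in graft P-SSCs. *Atf3* and *Egr1* were separated and higher but moved.

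**Figure D4:**
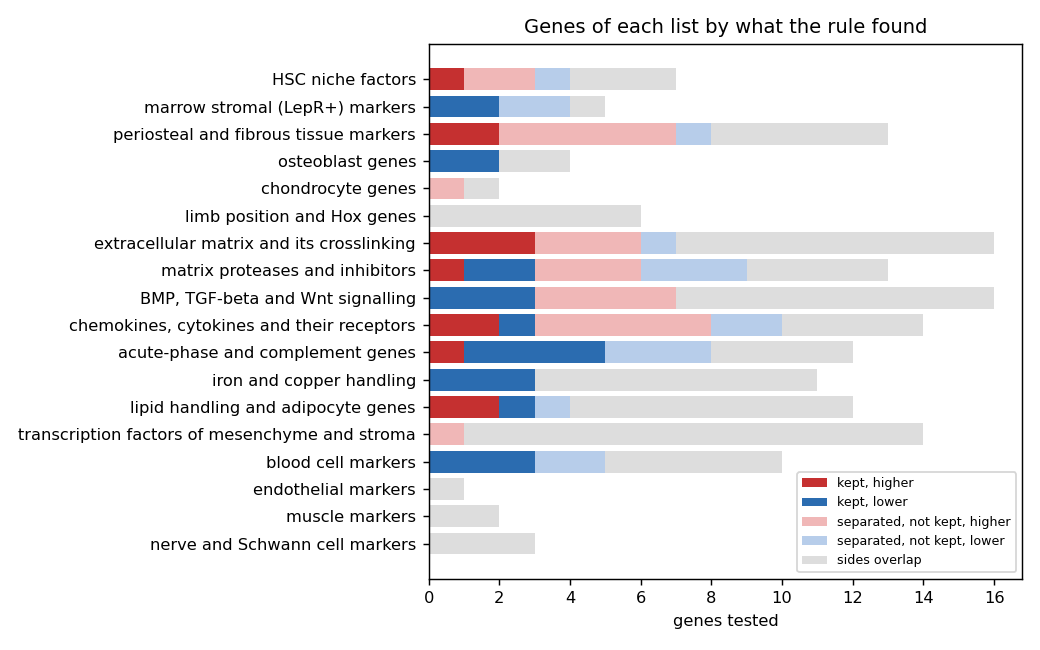
Bars give, for each of 18 gene lists, how many of the genes tested met the rule as higher or lower, were separated but had P-SSC means over 1 apart, or overlapped between the sides. Higher genes lead in the matrix and lower genes in the iron, osteoblast, marrow stromal and blood lists.

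How far the P-SSC groups lay apart. Since the rule set a limit of 1 on this difference, its size is a description. In the higher genes the graft mean was above steady state in 48 and below in 53, and the median difference was -0.0451 on the log2 scale. In the lower genes 87 were above and 95 below, with a median of -0.0047. Over all genes tested the median was 0.261, and it was 0.017 with median-of-ratios scaling and -0.0778 with quantile normalization. Graft and steady-state libraries overlapped in 62 of the 101 higher and 127 of the 187 lower genes, and in 963 (49.4%) of all genes tested. All graft libraries lay above all steady-state ones in 19 higher and 29 lower genes (31.5% of all genes tested), and below them in 20 higher and 31 lower genes (19.0% of all). The limit of 1 in the rule bears on these counts, and nothing is read from them.

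The 95% interval of the difference, from the limma fit of all 9 libraries, lay wholly between -1 and 1 in 136 of the 288 genes (47.2%), against 476 (24.4%) of all genes tested. It did so in 41 of the higher and 95 of the lower genes. For the other genes a difference of 1 or more between the P-SSC groups was within the interval, *Dmkn*, *Rcan1*, *Il6*, *Il1rn*, *Postn* and *Thbs3* among them. The count of 136 became 87 without graft P-SSC replicate 2 and 65 with a pseudocount of 0.1. The rule already required P-SSC means within 1, which 64.4% of all genes tested had. The shares of 47.2% and 24.4% are therefore not like for like, and nothing is read from them.

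**Figure D5:**
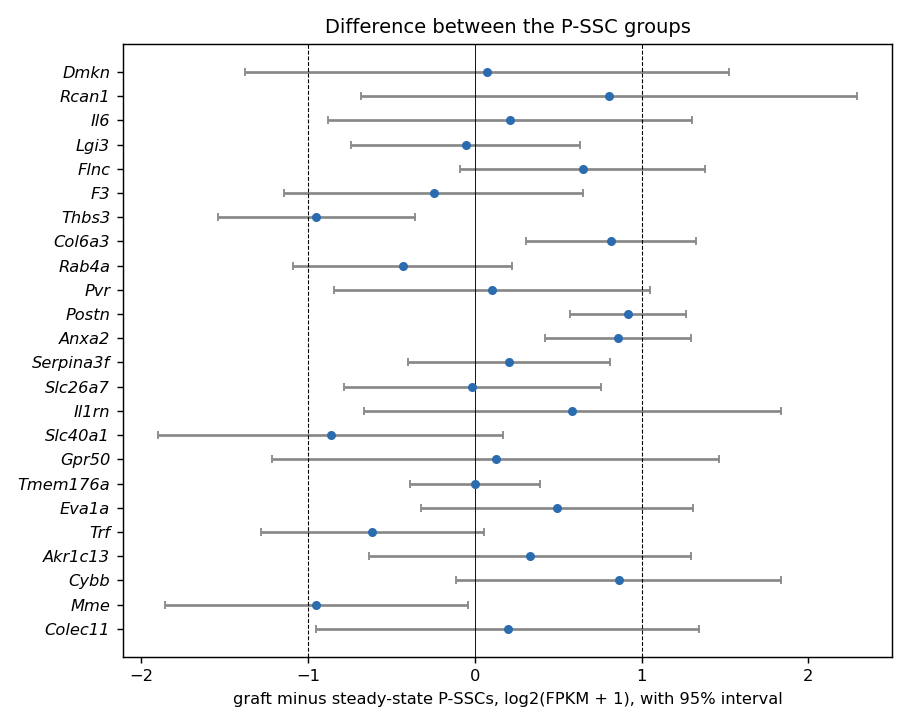
The graft minus steady-state difference of the 24 genes with the largest differences from marrow, 12 in each direction, whose higher side averaged 10 FPKM or more, as points on the log2(FPKM + 1) scale with 95% intervals. All points lie inside the dashed lines at -1 and 1 that the rule set, and the interval of *Tmem176a* is among those wholly inside.

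Near the limits of the rule, genes inside and outside had similar values. Among genes whose higher side averaged 10 FPKM or more, those just inside the limit of 1 were *Idnk* (-1.0), *Mme* (-0.95) and *Thbs3* (-0.95), and those just outside were *Rcan2* (-1.01), *Tiparp* (1.04) and *Il15* (-1.04). The smallest gaps between the sides were 0.0056 in *Kank2*, 0.0206 in *Abr* and 0.0211 in *Mindy1* among the higher genes, and 0.0058 in *Tmem216*, 0.0064 in *Arpc3* and 0.009 in *Ublcp1* among the lower. *Dynlrb1*, *St13* and *Pja2* just missed separation as higher, and *Trappc6a*, *Mul1* and *Ndufs3* as lower. *Dynlrb1* had 175 to 258 FPKM in BM-MSCs and 251 to 404 in the periosteal libraries.

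The separated genes that moved numbered 117. Of the 74 higher ones, 44 came nearer to marrow in the graft and 30 went further from it. Of the 43 lower ones, 18 came nearer to marrow and 25 went further. *Sfrp2*, a secreted modulator of Wnt, had 1.17 to 3.52 FPKM in BM-MSCs, 42.7, 55.1 and 1551 in P-SSCs and 880 to 1097 in graft P-SSCs, so P-SSC replicate 3 resembled the graft. *Serping1*, the inhibitor of complement C1, went from 3874 to 5567 FPKM in P-SSCs to 480 to 495 in graft P-SSCs, with 6603 to 9554 in BM-MSCs.

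Some features of the genes were not used by the rule. Protein-coding genes made up 93.1% of the higher and 92.5% of the lower genes, and 92% of all genes tested. Pseudogenes made up 5.94%, 1.07% and 4.41% in the same order, and their reads can come from near-identical parent genes. The table gave a transcription factor family for 4 higher (3.96%) and 10 lower genes (5.35%), against 5.85% of all genes tested, with *Rbpj*, *Fosl2*, *Erf* and *Mecom* on the higher side.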

How the data were processed

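RNA was sequenced from sorted BM-MSCs, P-SSCs and graft P-SSCs of mice, 3 libraries per group, as labelled by GEO. The authors deposited FPKM, which they made from reads mapped to GRCm38 with STAR 2.6.1d and counted with featureCounts 1.5.0-p3 per their processing notes, which also name CASAVA and fastp. The strand setting is not given in the sources used here. The log2(FPKM + 1) scale understates changes of low genes.

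The table held 8329 genes, 15.0% of the 55450 genes in the GENCODE annotation of GRCm38, and further genes were not analysed here. In single-transcript genes 99.8% of 4837 values were whole fragments within 0.05, which gave the library totals. These values are not counts, so no count test was run. The number of fragments limits the precision of low values, and p-values and intervals cover the spread between these libraries of distinct mice.

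Values were log2(FPKM + 1) with R 4.3.3. All 9 libraries were fitted with limma 3.58.1 (3 groups, eBayes with trend), and the mean of the P-SSC groups was set against BM-MSCs. Genes passed at an adjusted p under 0.05. The procedure was tested on simulated data whose means were held well above the floor of the scale, so that test does not cover low genes.

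The members and lists were chosen with earlier results of these data known. Named were *Trf*, the 12 largest differences each way among genes whose higher side averaged 10 FPKM or more, up to 3 of the most abundant members per list, and genes at the limits. Any others were chosen after their values were seen. Promoters were matched by symbol, taking the entry nearest to the gene start. Alternatives changed the pseudocount to 0.1, the filter, scaling, limits, model and libraries. Filters were kept from all 9 libraries when 1 was left out. Some genes named by this rule are not reported here.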

Additional observations from a re-analysis of the deposited data

How the results depend on the processing

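All 288 genes kept the direction of their difference from marrow under each alternative in which they were tested, and none of the 45 genes named from the rule reversed. Over these genes and alternatives, limma calls were kept or stayed absent in 717 cases, were lost in 40 and gained in 4. The lost calls were of *Il6st*, *Tmem216*, *Ublcp1*, *Kank2*, *Mindy1* and *Dand5*, and *Il6st* went from 1.01 to 0.60 without BM-MSC replicate 2. The counts of genes that met the rule moved by less than 1.5 times with a pseudocount of 0.1, another filter, median-of-ratios scaling or quantile normalization, and 233 and 211 of the 288 genes met it again under these scalings. Median-of-ratios scaling took the median graft minus steady-state difference of all genes from 0.261 to 0.017, and quantile normalization turned it to -0.0778. With P-SSC means within 0.5 there were 60 higher genes, and with a gap of at least 1 there were 21 higher and 66 lower. The number of genes whose interval lay within 1 was 65 with a pseudocount of 0.1. With the 6 periosteal libraries as 1 group, limma called 103 higher and 167 lower, since the spread then holds the difference between the P-SSC groups.

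Leaving out 1 library in turn, the rule gave 103 to 158 higher and 186 to 250 lower genes, limma called 195 to 409 higher and 236 to 351 lower, and 87 to 185 genes had an interval within 1. The higher count was 158 without BM-MSC replicate 1 and 152 without P-SSC replicate 2, limma called 195 higher without BM-MSC replicate 2, and 87 intervals lay within 1 without graft P-SSC replicate 2. The cause was not tested. With the replicate number as a replicate block, limma called 280 higher and 279 lower. Libraries of the same number had correlations of their deviations from the group mean between -0.434 and 0.132. For libraries of other numbers the range was -0.313 to 0.381. Deviations from the mean of so small a group depend on each other, so these correlations cannot decide whether groups shared mice. Sharing of mice that does not follow the replicate number was not tested. Restricted after the data were seen to genes with at least 1 FPKM on the lower side, the counts were 69 higher and 127 lower.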

Other observations

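Some families not described above held genes on both sides. Their lists were written after the values were seen and carry no test. Of all genes tested, 5.18% met the rule as higher and 9.60% as lower, and 8.98% and 11.8% were separated. All 5 NADPH and dual oxidase genes tested were separated. *Nox4*, the oxidase of mesenchymal cells, had at most 0.0468 FPKM in BM-MSCs, 7.49 to 15.4 in P-SSCs and 6.16 to 7.56 in graft P-SSCs. *Duox1* and its maturation factor *Duoxa1* were separated and higher but moved. *Duox1* had at most 0.0312 FPKM in BM-MSCs, 26.6 to 32.3 in P-SSCs and 6.28 to 7.69 in graft P-SSCs.

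Among 8 Notch pathway genes tested, *Notch2* and *Rbpj* met the rule as higher and *Notch3* as lower, and 5 overlapped. *Notch2* had 1.87 to 4.25 FPKM in BM-MSCs, 6.92, 6.96 and 16.9 in P-SSCs and 6.00 to 7.92 in graft P-SSCs. *Notch3* had 7.13 to 8.01 FPKM in BM-MSCs and 0.642 to 2.08 in the periosteal libraries. *Rbpj*, the DNA-binding partner of the Notch receptors, had 7.92 to 11.5 FPKM in BM-MSCs, 16.7 to 24.0 in P-SSCs and 14.8 to 15.9 in graft P-SSCs.

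Of 5 regulators of Ras and Rap tested, *Rasa3*, *Rasa4* and *Rasgrp2* met the rule as lower. Of the others, *Rasgef1b* was separated and higher and *Rapgef3* separated and lower, and both moved. *Rasa3*, a GTPase activating protein, had 308 to 399 FPKM in BM-MSCs, 27.3 to 48.0 in P-SSCs and 26.2 to 35.2 in graft P-SSCs. *Rasgrp2*, an exchange factor for Rap1 that is also known from platelets, had 35.1 to 56.2 FPKM in BM-MSCs and 1.21 to 3.08 in the periosteal libraries.

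Within the family of interleukin 6 signals, *Socs1*, an inhibitor of JAK kinases, had 0.0747 to 0.104 FPKM in BM-MSCs, 0.960, 0.237 and 19.8 in P-SSCs and 2.93 to 6.93 in graft P-SSCs. Its steady-state mean rests on P-SSC replicate 3.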
